A study of Mus musculus with 502 samples.

Results

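Immune cells of mouse kidneys kept cold for 1 day were compared with immune cells of freshly processed mouse kidneys whose names carry the same code. The comparison used the 75 cells labelled 1 day and the 81 cells labelled fresh whose names carry IM834, out of the 502 cells kept by the authors. Such a code is called a pool here, and no label says what it stands for. Cells were chosen by these labels alone, and no expression value entered the choice.

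The kidneys came from wild type CD1 mice, an outbred stock, that were a few weeks old, and were removed without perfusion. A fresh kidney went straight to dissociation, while a preserved kidney was stored whole in the transplant solution HTS-FRS at hypothermic temperature before it was handled in the same way. Both groups shared the later steps, namely digestion with liberase at body temperature, lysis of red cells, sorting of live cells that carried Cd45 (the surface protein of leukocytes), and full-length cDNA from each cell, of which wells with enough cDNA were sequenced. No label names the animal a cell came from, and the methods describe kidneys of a single mouse pooled for an early time point, so each group was 1 sample. Cells of 1 kidney preparation are not replicates of preservation, so no test was made, and every interval below covers counting error only.

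Immediate early genes such as Fos, Jun, Egr1 and Atf3 encode transcription factors that most cells can switch on within minutes of a stimulus, and warm enzymatic dissociation of a tissue is known to be one such stimulus. Heat shock genes encode chaperones that refold damaged proteins, and the inducible Hsp70 genes Hspa1a and Hspa1b are nearly silent in unstressed cells. The healthy kidney holds resident macrophages that make the complement protein C1q, together with T cells, B cells, innate lymphoid cells, monocytes and dendritic cells, and blood left in an unperfused organ adds circulating leukocytes.

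The groups differed in genes of both sex chromosomes, so their cells came from different animals. Xist, the RNA that coats the inactive X chromosome of female cells (GRCm38, chrX:103460366-103483254), was read in 2 of 81 fresh cells at a mean of 2.40 reads per 1000000 gene reads (rpm) and in 60 of 75 day 1 cells at 1003 rpm. The Y-linked genes pointed the other way. Eif2s3y, which encodes a translation factor subunit, was read in 21 of 81 fresh cells and 1 of 75 day 1 cells, and Ddx3y, an RNA helicase gene, in 15 and 1. Kdm5d and Uty, both encoding histone demethylases, were read in 6 and 7 fresh cells and in 0 day 1 cells. Tsix, the antisense partner of Xist, was listed in 0 of 81 fresh cells, which allows a share of up to 4.45% (exact upper limit), and in 43 of 75 day 1 cells (57.3%); the counting ignored strand, so reads of the pair cannot be told apart. Rps2-ps13, a processed ribosomal pseudogene of the X chromosome, was read in 63 of 81 fresh cells and 6 of 75 day 1 cells, with a mean 6.65 lower on the log2 scale, and its counts may share reads with the parent gene and its other copies. Fresh cells of the other pool (IM793) had Xist in 48 of 75 cells, and day 3 cells of pool IM834 in 0 of 82, which allows up to 4.40%. The effect of 1 day of preservation and the difference between the animals therefore cannot be told apart in any value that follows.

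Median depth was similar in the groups. The median total on genes was 548583 counts in fresh cells (22125 to 905555) and 502597 in day 1 cells (8310 to 926864), with 1 cell under 100000 in each, and the lower quartile was 467008 and 326392.5 counts. The median number of genes with a read was 1843 in fresh and 1966 in day 1 cells, and 1563 and 1648 in the cells of at least 100000 counts once these were thinned to that depth. Within B cells the medians were 1827 and 1773 genes, and within C1q macrophages 2221 (lowest cell 1576) and 2041 (lowest cell 311). Mitochondrial transcripts took a median of 3.88% of fresh and 3.15% of day 1 counts, and transcripts of cytosolic ribosomal protein genes 4.69% and 2.79%. The 18S ribosomal RNA gene took a median of 9.84% and 9.29%, but passed 20% in 1 of 81 fresh and 7 of 75 day 1 cells, with a maximum of 53.6%. No combination of sequencing indexes was shared by a fresh and a day 1 cell (0 shared).

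The makeup of the sorted cells differed between the preparations, with fewer T cells and more myeloid cells at day 1. A cell was put in a class when enough of that type's marker genes stood at 10 rpm or more. T cells (Cd3e, Cd3d, Cd3g, the signalling chains of the T cell receptor) were 45 of 81 fresh cells (55.6%, exact 95% interval 44.1 to 66.6%) and 6 of 75 day 1 cells (8.0%, 2.99 to 16.6%). C1q macrophages were 8 fresh cells (9.88%, 4.36 to 18.5%) and 22 day 1 cells (29.3%, interval from 19.4%). Cells with monocyte and dendritic markers such as Lyz2, Csf1r and Ccr2 were 4 (4.94%, 1.36 to 12.2%) and 16 (21.3%, 12.7 to 32.3%), and those with neutrophil markers 0 of 81 (exact upper limit 4.45%) and 5 of 75 (6.67%). B cells held about the same share, 16 of 81 (19.8%) and 14 of 75 (18.7%). Group 2 innate lymphoid cells, marked by Gata3, Rora and Il1rl1 among others, were 4 (4.94%) and 8 (10.7%). The plot of class shares shows that the intervals of fresh and day 1 cells were apart for T cells, C1q macrophages and monocyte and dendritic cells, and overlapped for B cells. The 75 fresh cells of pool IM793 held 10 T cells, 0 B cells, 17 neutrophils and 36 monocyte or dendritic cells, while their C1q macrophages were 7 of 75 (9.33%) beside the 8 of 81 fresh cells of pool IM834.

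**Figure D1:**
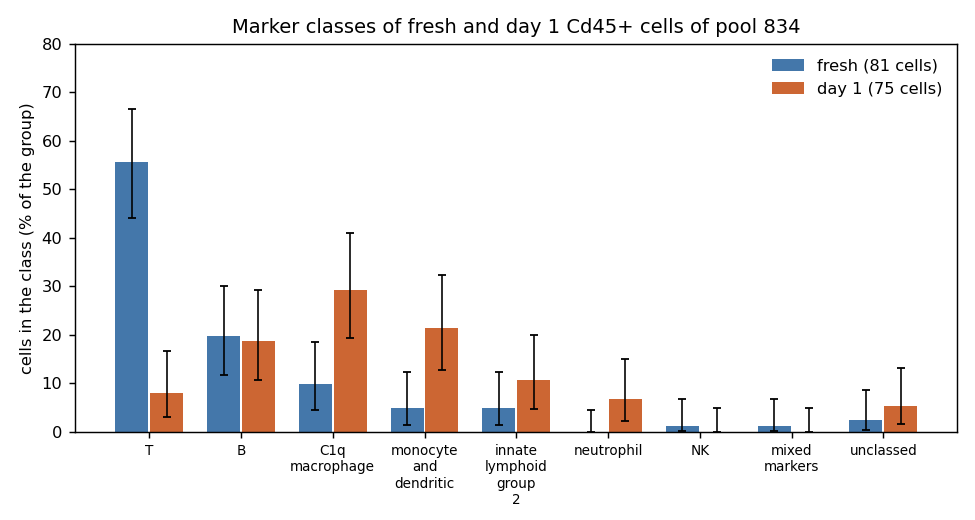
Share of fresh (81) and day 1 (75) cells in each marker class, in percent of the group, with exact 95% binomial intervals as error bars. T cells fill 55.6% of the fresh and 8.0% of the day 1 cells, C1q macrophages 9.88% and 29.3%, and B cells 19.8% and 18.7%.

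Over all cells, 5698 genes had a mean of at least 10 rpm and a read in at least 16 cells. Mean rpm was at least 2-fold higher at day 1 for 838 of them (14.7%) and at least 2-fold lower for 1064 (18.7%), where a fold or log2 ratio is taken after adding 1 rpm to both means. The median log2 ratio over these genes was -0.15 (SD over genes 1.21). For scale, the pair of fresh preparations, pool IM793 over pool IM834, were further apart, with 1151 of 6265 genes at least 2-fold higher (18.4%) and 1545 at least 2-fold lower (24.7%).

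T cell genes were lower in this mixed population. Of 10 T lineage genes that passed the filter, 9 were at least 2-fold lower, beside 18.7% of all genes, with a median log2 ratio of -2.61. Trac, the constant region of the T cell receptor alpha chain, stood at 499 rpm in fresh and 41.9 rpm in day 1 cells, and Lck, the kinase that starts receptor signalling, at 922.5 and 148.4 rpm. Of 7 naive T cell genes 6 were lower, among them S1pr1, the receptor that guides lymphocytes out of tissue, at 679.6 and 109.4 rpm. In means over mixed cells like these, fewer cells of a type and less RNA per cell cannot be told apart. Within the T class (45 fresh and 6 day 1 cells) Trac stood at 849.9 and 473.2 rpm, Lck at 1613 and 952.7 rpm and S1pr1 at 1080 and 482.6 rpm. Lef1 and Tcf7, transcription factors of naive T cells, stood there at 879 and 942 rpm and at 853 and 828 rpm.

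**Figure D2:**
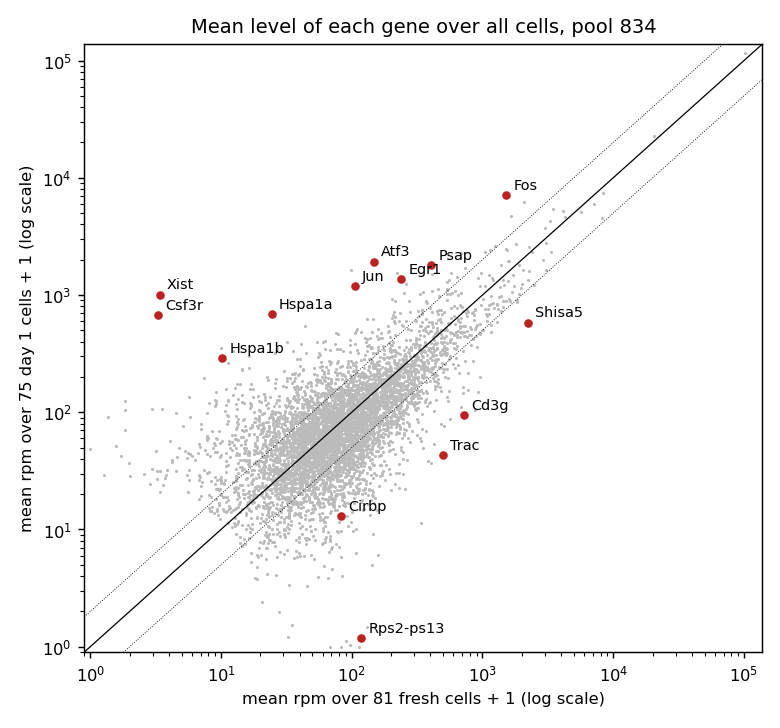
Mean rpm of each gene over the 75 day 1 cells against the 81 fresh cells, on log axes, with a selection of genes named. Xist, Hspa1a, Hspa1b, Atf3 and Jun lie above the diagonal, while Cd3g, Trac and Rps2-ps13 lie below it.

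Genes of the immediate early response were mostly higher at day 1. Of the 23 listed, 21 passed the filter, 17 were at least 2-fold higher at day 1 against 14.7% of all genes, and 0 were lower. Their median log2 ratio was 1.74, and 1.10 when the T, B and C1q macrophage classes were given equal weights in both groups. Fos, a subunit of the AP-1 transcription factor, ran from 0 through a median of 784 to 12156 rpm in fresh cells and from 0 through 4614 to 26279 rpm in day 1 cells, a 4.67-fold higher mean (1522 and 7119 rpm). Jun, its partner in AP-1, was read in 14 of 81 fresh and 61 of 75 day 1 cells, at 104.2 and 1190 rpm. The ranges of both genes overlapped over all cells. Egr1, a zinc finger factor, was read in 29 and 62 cells, with a 5.68-fold higher mean, and Atf3, a stress-induced partner of AP-1 factors, in 9 and 41 cells (147.1 and 1919 rpm). Fosb and Klf4, further transcription factors of this response, were 3.64 and 3.63 higher on the log2 scale, and Zfp36, which encodes a protein that destabilises cytokine mRNAs, 2.25 higher. Junb, at 1793 and 2712 rpm, and the receptor regulator Rgs1, at 451 and 729 rpm, stayed within 2-fold.

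The inducible Hsp70 pair had the widest log2 ratios of the stress lists among genes that passed the filter in all cells. Hspa1a was read in 10 of 81 fresh cells, with a highest value of 672 rpm, and in 46 of 75 day 1 cells, with a median of 182.7 and a highest value of 6981 rpm. Hspa1b was read in 9 and 48 cells, at means of 9.21 and 289 rpm. The log2 ratios were 4.82 and 4.83. Of 13 heat shock genes that passed, 5 were at least 2-fold higher (38.5%, beside 14.7% of all genes) and 0 lower, with a median log2 ratio of 0.60, or 1.44 with equal class weights; Hsp90ab1, the constitutive Hsp90, stayed at 1893 and 1790 rpm. Hspa1a and Hspa1b are near-identical neighbours, so how reads were split between them is uncertain. Their promoters are printed with that of Fos and of Atf3 for the search of short motifs below. No comparison of day 1 with fresh used these promoters. Each is the 250 bases before the RefSeq transcript start on GRCm38.p6, on the strand of its gene. The Hspa1a window lies at chr17:34972157-34972406 (minus strand), Hspa1b at chr17:34959239-34959488 (minus), Fos at chr12:85473640-85473889 (plus) and Atf3 at chr1:191183334-191183583 (minus). Capitals mark GAANNTTC in the Hsp70 pair, a form of the heat shock element, and TGACG or its reverse complement CGTCA in Fos and Atf3, the core that is shared with the longer cyclic AMP response element TGACGTCA.
Hspa1a promoter: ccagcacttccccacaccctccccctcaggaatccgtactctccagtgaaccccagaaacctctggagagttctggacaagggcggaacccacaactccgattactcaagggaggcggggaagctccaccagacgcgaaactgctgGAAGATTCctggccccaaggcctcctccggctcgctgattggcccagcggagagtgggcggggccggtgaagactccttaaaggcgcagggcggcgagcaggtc
Hspa1b promoter: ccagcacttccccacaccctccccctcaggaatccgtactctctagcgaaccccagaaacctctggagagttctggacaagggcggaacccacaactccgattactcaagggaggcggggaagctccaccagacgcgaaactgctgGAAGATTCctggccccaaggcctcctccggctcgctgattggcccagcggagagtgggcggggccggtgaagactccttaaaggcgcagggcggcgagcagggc
Fos promoter: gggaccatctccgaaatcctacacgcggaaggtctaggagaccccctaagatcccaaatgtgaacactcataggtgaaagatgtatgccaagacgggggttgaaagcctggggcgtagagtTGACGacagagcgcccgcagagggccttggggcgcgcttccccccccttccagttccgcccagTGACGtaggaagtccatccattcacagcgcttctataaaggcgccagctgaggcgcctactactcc
Atf3 promoter: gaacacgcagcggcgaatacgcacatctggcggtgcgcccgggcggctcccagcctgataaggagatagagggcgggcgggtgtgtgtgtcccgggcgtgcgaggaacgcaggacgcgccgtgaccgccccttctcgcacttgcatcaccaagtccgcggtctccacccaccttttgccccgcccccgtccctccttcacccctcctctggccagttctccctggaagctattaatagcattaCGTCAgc

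The 2 Hsp70 promoters differed at 3 of 250 positions, and the marked match lay at the same place in both. Searched on both strands, GAANNTTC was found in the window of 6 of 12 heat shock genes with a promoter in the table, of 2 of 18 immediate early genes (11.1%) and of 2088 of all 27025 genes (7.73%). Its mirror form TTCNNGAA was found in 4 of 12, 1 of 18 and 8.11% of all genes. TGACG was found in 10 of 18 immediate early genes (55.6%), in 6 of 12 heat shock genes and in 19.8% of all genes, and the full TGACGTCA, which contains it, in 2 of 18 and in 1.77% of all genes. The AP-1 motif TGANTCA was in 0 of 18 immediate early genes, 2 of 12 heat shock genes and 7.82% of all genes. A match describes these letters in this window and is not a bound site.

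Immediate early genes were also higher within the B class, whose cells differed in Ighd, Fcer2a and Ciita as well. The comparison of 16 fresh and 14 day 1 B cells covered 1990 genes with a mean of at least 10 rpm and a read in at least 25% of the cells; 403 were at least 2-fold higher (20.3%) and 450 at least 2-fold lower (22.6%). Of 16 immediate early genes that passed, 15 were at least 2-fold higher and 0 lower, with a median log2 ratio of 2.31 beside -0.16 for all genes. Jun ran from 0 through a median of 0 to 2.61 rpm in fresh B cells, where 1 read was counted in 1 of 16 cells, and from 44.6 through 975 to 2936 rpm in day 1 B cells, where all 14 cells had reads. The groups did not overlap for Jun. Fos stood at a median of 1274 rpm in fresh and 8218 rpm in day 1 B cells, and its mean was 6.89-fold higher. Egr1 was read in 4 of 16 fresh cells, with 98.4% of its summed rpm from 1 cell, and in 13 of 14 day 1 cells at a mean of 2247 rpm, 4.19 higher on the log2 scale. Klf2, a transcription factor of resting and trafficking lymphocytes, had a highest fresh value of 586 rpm and a lowest day 1 value of 57.5 rpm, with medians of 46.4 and 1157 rpm. Dusp1, which encodes a phosphatase of stress kinases, was 0.58 higher on the log2 scale and the one gene of the list that passed and stayed within 2-fold.

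B cells also carried more heat shock transcripts at day 1. Of 11 genes that passed, 8 were at least 2-fold higher, beside 20.3% of all genes in B cells, and 0 lower (median log2 ratio 1.78, the same with the gene absent from fresh cells set at its floor of 3 counts over the group). Hspa8, the constitutive Hsc70 chaperone, ran from 47.3 through a median of 1081 to 2517 rpm in fresh and from 475 through 4085 to 6866 rpm in day 1 B cells. Dnaja1, an Hsp40 co-chaperone, was read in 4 of 16 and 13 of 14 cells at 123.4 and 1165 rpm, and Hsp90aa1, the inducible Hsp90, was 1.75 higher on the log2 scale. Hspa1b was read in 0 of 16 fresh B cells, which allows a share of up to 20.6% (exact upper limit), and in 8 of 14 day 1 B cells at 150.9 rpm, at least 439-fold above the floor of 3 counts over the fresh B cells. Hspa1a was read once in the fresh B cells and in 7 of 14 day 1 B cells at 377 rpm.

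**Figure D3:**
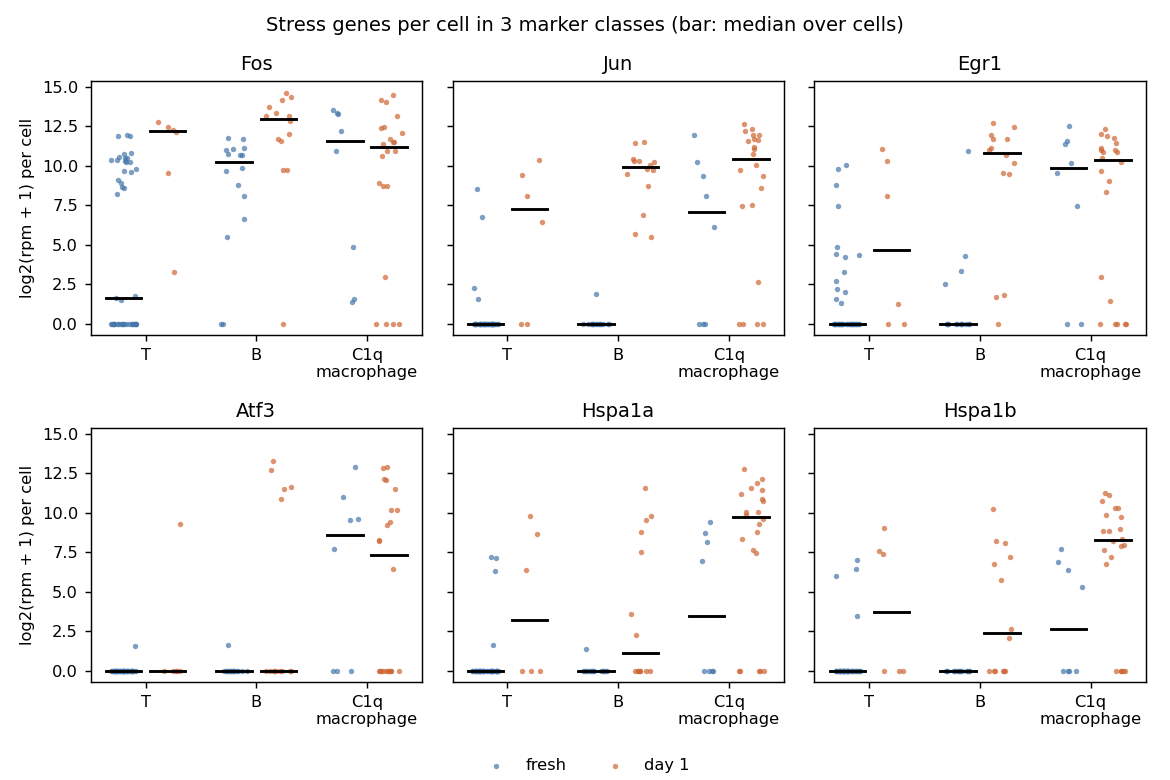
Level of 6 stress genes in each fresh and day 1 cell of the T, B and C1q macrophage classes, as log2(rpm + 1), with a bar at the median over cells. For Jun the 14 day 1 B cells lie above the 16 fresh B cells without overlap, while the ranges of fresh and day 1 C1q macrophages overlap for Fos and Egr1.

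In C1q macrophages, 8 fresh and 22 day 1 cells, immediate early genes had no common direction. Among 2511 genes tested there, 618 were at least 2-fold higher (24.6%) and 522 at least 2-fold lower (20.8%). With TMM scaling of summed counts this split became 721 higher and 340 lower, and without each gene's highest cell in each group 993 higher and 410 lower; the median over all genes moved from -0.02 to 0.27 and 0.46 on the log2 scale. Of 19 immediate early genes that passed, 5 were higher and 4 lower, with a median log2 ratio of -0.03 that was 2.17 in cells sorted into well columns 1 to 6 and -1.58 in columns 7 to 12. Fos stood at a median of 3376 rpm in fresh and 2311 rpm in day 1 macrophages (means 4918 and 4631 rpm), Egr1 at means of 1718 and 1538 rpm, and Atf3 at 1444 and 1412 rpm. Fresh macrophages thus held Fos at a mean several times that of fresh B cells (1308 rpm) or fresh T cells (676 rpm). Jun was 1.35 and Ier5 1.67 higher on the log2 scale in day 1 macrophages, while Dusp1 was 1.06, Zfp36 1.02 and Ier3, a survival gene of the same response, 1.36 lower.

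The Hsp70 pair was higher in macrophages as well. Hspa1a was read in 4 of 8 fresh and 17 of 22 day 1 macrophages, with medians of 62.4 and 860 rpm and highest values of 672 and 6981 rpm, a 7.81-fold higher mean. Hspa1b stood at 56.2 and 624 rpm, and Hsp90aa1 was 2.31 higher on the log2 scale. Of 11 heat shock genes that passed, 4 were higher (36.4%, beside 24.6% of all genes in this class) and 0 lower, with a median log2 ratio of 0.81, and Hspa8 stayed close, at 1586 and 1915 rpm. The ranges of the groups overlapped for each of these genes.

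Counting how many of the 23 immediate early genes stood at 10 rpm or more in a cell gave a level for each class that single high cells cannot set. The median cell had 9 in fresh and 15 in day 1 preparations. B cells went from 9 to 16, T cells from 7 to 9.5, group 2 innate lymphoid cells from 9 to 14, and monocyte and dendritic cells from 12 to 17.5, whereas C1q macrophages had a median of 14 in both. The macrophage values differed by well column, a split chosen for this count after its values were seen and with 4 fresh cells in each set of columns. In well columns 1 to 6 the 4 fresh macrophages had a median of 8 and the 10 day 1 macrophages 16.5, and in columns 7 to 12 the 4 fresh had 15 and the 12 day 1 had 9.5. At most 5 genes were present in 2 of 8 fresh macrophages, both from columns 1 to 6, and in 6 of 22 day 1 macrophages, which all came from columns 7 to 12. In 2 of those 6, 18S RNA passed 20%. Those 6 included cells with 311, 555 and 681 genes read, and another day 1 macrophage had 631, while the lowest fresh macrophage had 1576. The paper set apart a macrophage cluster with few genes, absent from fresh samples, as most likely low quality or apoptosing. Here such cells stayed in the class shares and means, and their match to that cluster was not tested. B cells had a median of 16 at day 1 in both sets of columns, and 9 and 9.5 when fresh. The part of well position and RNA quality in the macrophage values was not tested. For the heat shock list the median was 6 genes present in fresh and 8 in day 1 cells, 5 and 8 in B cells, and 8 and 8.5 in macrophages.

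**Figure D4:**
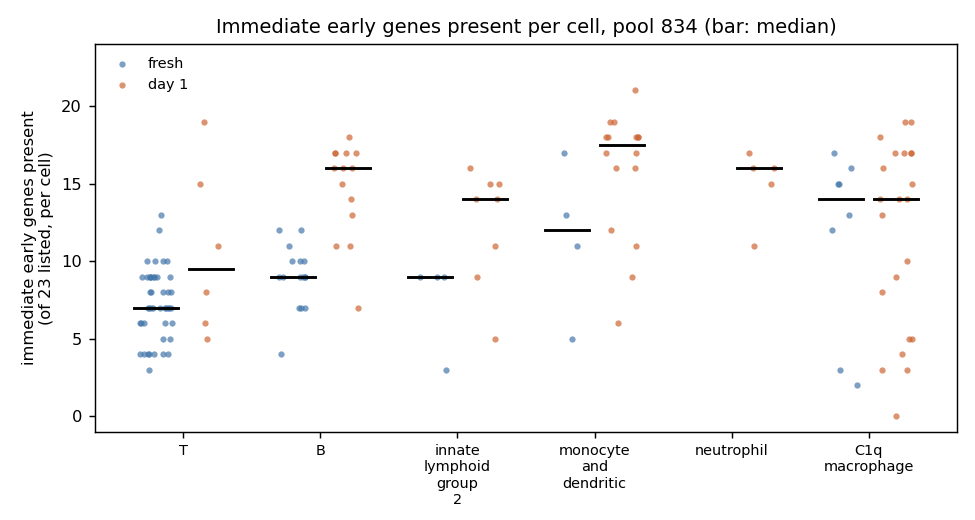
Number of the 23 immediate early genes at 10 rpm or more in each cell, by marker class and group, with a bar at the median. The median is 9 in fresh and 16 in day 1 B cells, and 14 in both groups of C1q macrophages, where day 1 cells spread from 0 to 19.

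The remaining classes were too small for counts of genes, and their values are given as levels. In T cells (45 fresh, 6 day 1) Fos had means of 676 and 3829 rpm, Egr1 59.2 and 618 rpm, and Hspa1a was read in 4 of 45 and 3 of 6 cells. In monocyte and dendritic cells (4 fresh, 16 day 1) Fos had means of 1986 and 8655 rpm, and Atf3 was read in 2 of 4 cells at 91.3 rpm and in 15 of 16 cells at 4095 rpm. Hspa1a and Hspa1b were absent from those 4 fresh cells and read in 15 and 14 of 16 day 1 cells at 712 and 281 rpm. In innate lymphoid cells (4 fresh, 8 day 1) Fos stood at 2696 and 3134 rpm, and Gadd45b, a stress gene that restrains growth, was read in 0 of 4 and 6 of 8 cells. The 5 day 1 neutrophils all had Fos (mean 17014 rpm), Il1b (17764 rpm) and Dusp1 (24259 rpm), while Jun was read in 2 and Hspa1a in 1 of them.

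NF-kB response genes, which include inflammatory cytokines and feedback inhibitors, were higher over all cells in 10 of 15 cases, beside 14.7% of all genes, and lower in 1 (median log2 ratio 1.62). The median was 0.00 when the T, B and C1q macrophage classes were given equal weights in both groups. Il1b, encoding the cytokine interleukin 1 beta, was read in 10 fresh and 30 day 1 cells at 220 and 1527 rpm. The 5 day 1 neutrophils, of which fresh cells had 0, stood at 17764 rpm, and without them the day 1 mean was 367 rpm (log2 ratio 0.74), within 2-fold; the list then had 10 of 15 genes higher, with a median of 1.16. Cxcl2, a neutrophil attractant, was read in 8 and 28 cells at 333 and 1023 rpm. Relb, encoding an NF-kB subunit, was the 1 lower gene, at 143.5 and 19.9 rpm. Within macrophages 2 of 13 listed genes, Nfkb1 and Icam1, were higher and 3 lower (23.1%, near the 20.8% of all genes in that class), with a median of -0.19. The lower genes there were Il1b at 2182 and 504 rpm (6 of 8 and 12 of 22 cells), Cxcl2 at 3351 and 1607 rpm, and the monocyte attractant Ccl2 at 969 and 446 rpm. Il1b, Cxcl2 and Ccl2 were read in 0 of 16 fresh and 0 of 14 day 1 B cells. In B cells Nfkbia, the inhibitor that holds NF-kB in the cytoplasm, stood at 279 and 1640 rpm and Nfkbid, a nuclear regulator of NF-kB, at 227.9 and 1107 rpm, with 5 of 9 listed genes higher, beside 20.3% of all genes in B cells, and 1, Relb, lower.

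Some damage and survival genes were higher over all cells, where 14.7% of all genes were. Of 6 genes listed as p53 targets 3 were higher and 0 lower (median log2 ratio 1.05). Cdkn1a, the p21 cell cycle inhibitor, stood at 43.6 and 318 rpm, and Gadd45b, a general stress gene counted on that list, at 39.6 and 379 rpm. In B cells Mdm2, which encodes the ligase that degrades p53, stood at 89.7 and 564 rpm. All 3 listed genes that passed there, Gadd45b among them, were higher, beside 20.3% of all genes in B cells. Activity of p53 was not tested. Of 10 Bcl2 family genes 4 were higher and 1 lower. Pmaip1, which encodes the death-promoting protein Noxa, was read in 6 and 29 cells (59.4 and 399 rpm), Mcl1, a survival factor, stood at 532 and 1095 rpm, and Bcl2 itself, a survival factor of lymphocytes, at 311.9 and 107.1 rpm. Of 7 unfolded protein response genes 1 was higher (14.3%, near the share of all genes), Ddit3, encoding the stress factor CHOP, read in 5 and 26 cells at 7.15 and 118.1 rpm; Atf4 and Xbp1, upstream factors of that response, were 0.34 and 0.26 higher on the log2 scale.

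**Figure D5:**
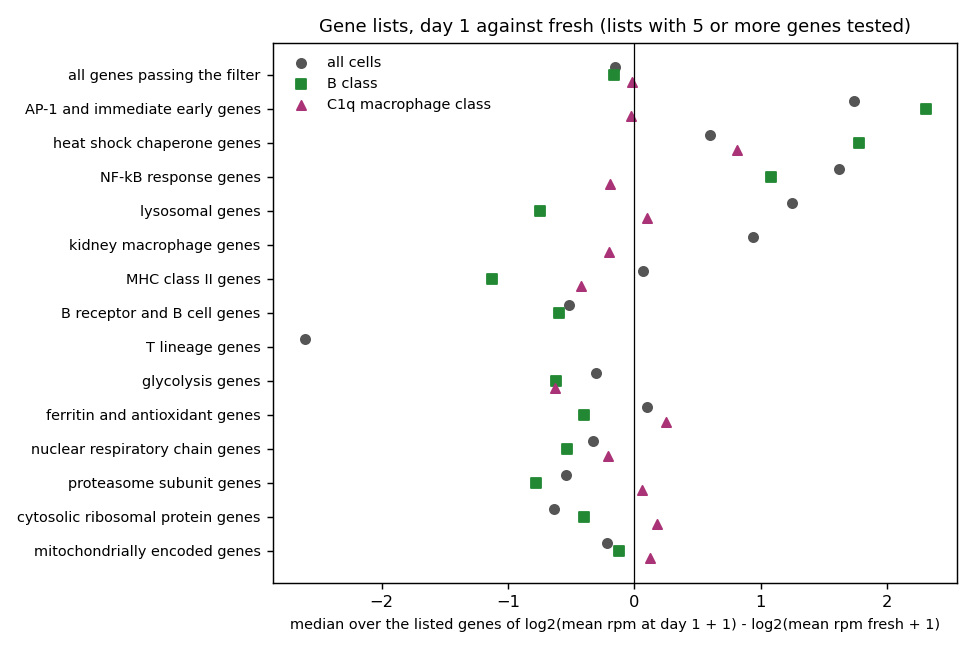
Median log2 ratio of mean rpm, day 1 over fresh, for each gene list with 5 or more genes tested, over all cells and within the B and C1q macrophage classes. The immediate early list stands at 1.74, 2.31 and -0.03, and the T lineage list at -2.61 over all cells.

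Ighd, Fcer2a and Ciita, genes of mature B cells and antigen presentation, were lower in day 1 B cells. Ighd, the constant region of IgD on mature naive B cells, was read in each of 16 fresh B cells between 820 and 8289 rpm (median 3691) and in 11 of 14 day 1 B cells (median 50.2, highest 2865 rpm), a 7.52-fold lower mean. Fcer2a, the low-affinity IgE receptor CD23, was read in 14 of 16 and 4 of 14 cells at 2054 and 282 rpm. In contrast Ighm, the constant region of IgM, stood at 5963 and 8166 rpm and Igkc, the kappa light chain, at 3097 and 3101 rpm, so the surface receptor chains did not move together. Cd79a, the receptor's signalling chain, which helped define the class, stood at 2885 and 2086 rpm. Of 15 B cell genes, 5 were at least 2-fold lower (33.3%, beside 22.6% of all genes in B cells) and 0 higher (median log2 ratio -0.60).

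Of 10 MHC class II genes in B cells, 5 were at least 2-fold lower, beside 22.6% of all genes, and 0 higher, with a median log2 ratio of -1.13. Ciita, the factor that switches this gene set on, was read in 12 of 16 fresh and 4 of 14 day 1 B cells at 471 and 34.5 rpm, with 96.9% of the day 1 sum from 1 cell. H2-Aa, a class II alpha chain, ran from 4328 through a median of 8620 to 12281 rpm in fresh and from 0 through 2355 to 13271 rpm in day 1 B cells. H2-Ob, which tunes peptide loading, stood at 732.7 and 126.9 rpm, and Cd74, the invariant chain, was 0.82 lower on the log2 scale. Lgmn, the lysosomal protease legumain, was read in 9 of 16 fresh cells at 393 rpm and in 0 of 14 day 1 cells, which allows a share of up to 23.2% (exact upper limit). Stk17b, a kinase gene of lymphocytes, was lower as well, at 3109 and 1168 rpm. Among genes named by their difference alone, Tspan13 (570 and 18.5 rpm), Grcc10 (177.3 and 22.1 rpm) and Shisa5 (2897 and 755 rpm) were lower, and Myadm (2.09 higher on the log2 scale), Ccnl1 (172.3 and 1011 rpm) and Gadd45b (71.9 and 432 rpm) higher. In macrophages the class II genes stayed closer, with 0 of 7 higher, 1 lower (14.3%, beside 20.8% of all genes in that class) and H2-Aa at 6188 and 6670 rpm.

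Genes of kidney macrophages were higher over all cells in 6 of 13 cases, beside 14.7% of all genes, and lower in 0. Within the macrophage class 1 of 13 was higher and 3 were lower (23.1%, near the 20.8% of all genes in this class), with a median log2 ratio of -0.20. Cx3cr1, the fractalkine receptor of resident macrophages, stood at medians of 944 and 1284 rpm and means of 1762 and 2959 rpm. Adgre1, encoding the F4/80 antigen, stood at medians of 1800 and 247.1 rpm, and the tetraspanin gene Cd81 at 2000 and 868 rpm, with means 1.40 and 1.08 lower on the log2 scale. Cd14, the lipopolysaccharide co-receptor, was at 2636 and 837 rpm, and Apoe, the lipid carrier, at 10866 and 7942 rpm. The lysosomal list behaved alike. Over all cells 10 of 16 genes were higher, beside the same 14.7%, with Psap, a saposin precursor, at 405 and 1795 rpm; the median log2 ratio was 1.25, and -0.02 with equal class weights. Within macrophages 0 of 16 passed 2-fold in either direction (median 0.10).

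Named by the size of their difference in macrophages, Il6ra, the interleukin 6 receptor (29.4 and 452 rpm), Themis2, a signalling adaptor (54.6 and 691 rpm), Tubb2a, a tubulin (52.9 and 285 rpm), Mtpn, myotrophin (44.9 and 405 rpm), and Pik3cg, a phosphoinositide kinase subunit (2.64 and 376 rpm), were higher at day 1. Nucks1 (1.36 and 223.9 rpm) and Rassf5 (0 of 8 and 9 of 22 cells) were also on this side. Lower at day 1 were Tm9sf3 (940 and 160.8 rpm), Cabin1, a calcineurin inhibitor (336 and 45.7 rpm), Ifngr2, a chain of the interferon gamma receptor (610 and 83.1 rpm), Adh5 (409 and 51.1 rpm), Qsox1 (357 and 58.5 rpm), the integrin chain Itgb5 (914 and 343 rpm), Klhl6 (665 and 58.6 rpm) and Stk17b (1255 and 621 rpm). For Il6ra, Tubb2a, Mtpn and Pik3cg, 97.9% to 100% of the fresh sum came from a single cell.

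The cold-inducible RNA binding genes Cirbp and Rbm3 were not higher over all day 1 cells. Cirbp, whose product accumulates in mildly cooled cells, was read in 17 of 81 fresh and 4 of 75 day 1 cells (81.7 and 12 rpm), and Rbm3, of the same family, in 54 and 40 cells (305.2 and 193.9 rpm). Rbm3 stood 1.56 lower in B cells and 1.15 higher in macrophages on the log2 scale. Hypoxia response genes passed the filter in 5 of 14 cases, of which 0 were higher and 1 lower (18.7% of all genes were lower), the pyruvate dehydrogenase kinase gene Pdk1 at 143.1 and 18.5 rpm; Vegfa, the hypoxia-induced growth factor gene, was read in 0 fresh and 2 day 1 cells. Of 14 glycolysis genes 0 were higher and 3 lower (21.4%, near that share), with Ldha, encoding lactate dehydrogenase A, at 1292 and 588 rpm. Of 13 ferritin and antioxidant genes 2 were higher (15.4%, near the 14.7% of all genes) and 0 lower, namely Ftl1, the ferritin light chain, at 1144 and 2421 rpm, and Txn1, thioredoxin, at 83.5 and 191.4 rpm.

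Most housekeeping genes stayed within 2-fold. Of 80 cytosolic ribosomal protein genes 0 were at least 2-fold higher and 7 lower over all cells (8.75%, beside 18.7% of all genes), with a median log2 ratio of -0.64, and within macrophages 6 were higher and 2 lower of 79 (7.59% and 2.53%, beside 24.6% and 20.8% of all genes in that class), with a median of 0.18. Rps6, a small subunit protein gene, stood at 498.3 and 219.3 rpm over all cells. For 9 mitochondrially encoded genes 0 passed 2-fold in either direction (median -0.22). Nuclear genes of the respiratory chain were higher in 1 and lower in 5 of 74 cases (median -0.33), among them Sdha, a subunit of complex II, at 432.6 and 202.6 rpm. Proteasome subunit genes were higher in 0 and lower in 5 of 35 cases (median -0.54), with Psma6, a core subunit gene, at 313.2 and 119.6 rpm.

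Many defining genes of other kidney and blood cells were at 0. Of 14 tubule epithelial genes, Slc12a1, Aqp1, Aqp2 and Cdh16 were at 0 in both groups, and the summed level of the list had a median of 0 rpm in each (highest cell 1352 rpm in fresh and 5810 rpm in day 1). Ass1, an enzyme gene on that list, was read in 20 of 81 fresh and 7 of 75 day 1 cells, with a log2 ratio of -2.37. Spp1, the osteopontin gene, which is on that list and is also made by macrophages, was read in 0 fresh and 10 day 1 cells (153.7 rpm). The endothelial genes Cdh5, Emcn and Tek and the globin genes Hbb-bs, Hbb-bt and Hba-a2 were at 0 in both groups, with a median sum of 0 rpm for both lists. Pecam1, an endothelial gene that leukocytes also express, was read in 21 and 11 cells (84.6 and 46.1 rpm). Pan-leukocyte genes were read in most cells, Ptprc, which encodes Cd45, in 79 of 81 and 73 of 75, but 3 of 5 were at least 2-fold lower, beside 18.7% of all genes (median log2 ratio -1.01). These were Coro1a at 2458 and 1216 rpm, Cd52 at 819.6 and 374.8 rpm (78 of 81 and 59 of 75 cells) and Arhgdib at 1842 and 866 rpm. Pf4, a platelet chemokine gene, was read in 8 and 16 cells (36.9 and 108.2 rpm), while the platelet genes Gp9 and Itga2b were at 0.

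Fresh cells of pool IM793, from kidneys that were not preserved, give a second fresh level for the stress lists. The median cell there had 12 immediate early genes present, against 9 in fresh and 15 in day 1 cells of pool IM834. By class, its 10 T cells had a median of 11.5, against 7 and 9.5. Its 7 C1q macrophages had 16, against 14 in both. Its 36 monocyte and dendritic cells had 13.5, against 12 and 17.5, and its 17 neutrophils 11, against 16 at day 1. Heat shock genes present were 8 in those T cells and 9 in those macrophages, against 7.5 and 8.5 at day 1. In those monocyte and dendritic cells they were 7, against 8 at day 1. Over pool IM834, 18.4% of all genes were at least 2-fold higher in pool IM793 and 24.7% lower. Of 20 immediate early genes 8 were higher and 1 lower in pool IM793 over pool IM834 (median log2 ratio 0.75), and of 15 NF-kB response genes 9 were higher and 1 lower (median 1.35). Heat shock genes were higher in 3 and lower in 2 of 14 cases (median -0.17). Of 6 genes listed as p53 targets 3 were higher and 1 lower (median 0.80, beside 1.05 for day 1 over fresh in pool IM834). Of 11 Bcl2 family genes 4 were higher and 1 lower (median 0.81, beside 0.88). Both fresh preparations and day 1 differed in cell makeup, and the list values over pool IM834 were taken over all cells. Day 3 cells of pool IM834 had a median of 9 immediate early genes present among 82 cells, of which 56 were C1q macrophages.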

How the data were processed

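Single Cd45+ mouse kidney cells were sequenced after cDNA synthesis adapted from SmartSeq2. The authors cut reads to 75 bp, discarded duplicates (picard), mapped to GRCm38 (STAR) and assigned reads to genes with HTSeq in intersection-strict mode without strand; cells under 1000 reads were excluded. Tool versions were not given in the sources used here. Deposited values are raw counts, 1 column per cell and 46700 rows. The 96 spike-in rows and 1 vector row (0.358% of fresh and 0.325% of day 1 counts) were left out, and 46603 gene rows remained. Without molecular identifiers reads are not independent molecules, and intervals cover counting error alone.

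Each cell's counts were scaled to its sum over gene rows and given as rpm. Means over cells were compared as log2 ratios with 1 rpm added, among genes with a mean of at least 10 rpm and a read in at least 16 cells, or in at least 25% of the cells of a class. A class needed 2 markers (T, B, C1q) or 3 markers (others) at 10 rpm. Doublets were not called; 1 fresh cell that met the rule of more than 1 of the T, B, C1q and neutrophil classes was kept apart, and cells of these classes that also met the rule of another class kept their class (5 of 45 fresh and 1 of 6 day 1 T cells for group 2 innate lymphoid cells, 1 fresh T cell, 2 of 8 fresh and 4 of 22 day 1 C1q macrophages for monocyte and dendritic cells). The gene lists and comparisons were chosen with earlier results of these data known. Genes were named if they stood on a list, or were among the 12 (all cells) or 8 (B and C1q classes) with the largest difference of mean log2(rpm + 1) in each direction; the T class had too few day 1 cells. Rps2-ps13 and Xist came in by that rule, and Tsix was named after its values were seen, as the one gene read in over 50% of day 1 cells and 0 fresh cells. Promoters are from RefSeq (GRCm38.p6). Each group of the comparison was 1 sample, so no count model was fitted. The packages edgeR 4.0.16 (TMM) and DESeq2 1.42.0 (size factors) gave alternative scalings only. Other alternatives were 10 rpm added, no filter, 18S left out, equal class weights, each gene's highest cell left out, and well columns 1 to 6 or 7 to 12. Scripts (Python 3.11.15, R 4.3.3) were tested on simulated data. Not all gene lists are reported here.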

Additional observations from a re-analysis of the deposited data

Results flagged for a closer look

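For 5 genes the B and C1q macrophage classes stood at least 2-fold apart from fresh in opposite directions, as log2 ratios of mean rpm, day 1 over fresh; the difference between the classes was not tested. Zfp36 stood at 2.72 in B cells and -1.02 in macrophages, and Nr4a1, an orphan nuclear receptor gene of the immediate early response, at 1.90 and -1.0. The macrophage values of these genes lie at the 2-fold line, TMM factors moved the median of all genes in macrophages from -0.02 to 0.27, and the immediate early list there had a median of 2.17 in well columns 1 to 6 and -1.58 in columns 7 to 12. Rbm3 stood at -1.56 and 1.15, and Sod1, encoding the cytosolic superoxide dismutase, at -2.79 and 2.24. Hif1a, encoding the oxygen-regulated transcription factor, stood at 1.07 and -1.75.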

How the results depend on the processing

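Cell class shares kept within their counting interval under all 72 alternative values. With no filter 3354 genes were higher and 3235 lower over all cells. Equal weights for the T, B and C1q classes gave list medians of 1.10 for immediate early genes and 1.44 for heat shock genes, and turned the lysosomal list to -0.02. Without each gene's highest cell in each group the C1q class had 993 genes higher, an immediate early median of 0.55 and, in B cells, a heat shock median of 2.31; TMM left 340 genes lower in the C1q class. By well columns, the immediate early median of C1q macrophages was 2.17 in columns 1 to 6 and -1.58 in columns 7 to 12, with 8.5 more and 5.5 fewer genes present per cell at day 1 (a difference of -5.5), and the heat shock list had a difference of -2 genes present in columns 7 to 12; its B cell median there was 1.14. The split of list values by well columns, the NF-kB values without neutrophils, and leaving out 1 fresh and 8 day 1 cells of low depth or over 20% 18S, were chosen after seeing the data. Leaving out those cells of low depth or high 18S moved none of the values it was run on beyond tolerance. Among alternative values of named genes, 274 stayed past 2-fold, 6 did not and 0 reversed; among those of list medians, 47 moved by more than 0.5 and 1 reversed. No paired analysis was possible because each group was 1 sample. With 8 fresh macrophages 1 cell can move a mean, and with 1 sample a group no value has a replicate check.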

Other observations

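Ighm was read outside the B class. In C1q macrophages it was read in 8 of 8 fresh cells (407 to 3347 rpm) and 18 of 22 day 1 cells (mean 1012 rpm), and in T cells in 21 of 45 fresh cells (mean 282 rpm). Igkc was read in 0 of 8 and 2 of 22 of the same macrophages (mean 5.85 rpm at day 1), and Ighd in 0 of 8 and 2 of 22. In B cells Ighm and Igkc stood together, at 5963 and 3097 rpm when fresh.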
